A study of Homo sapiens with 10 samples.

Results

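The genes of retinoic acid signalling followed here, from human embryonic stem cells (ESCs) to neuroectodermal cells (NECs), were the receptors RARA, RARB, RARG, RXRA and RXRG, the binding proteins CRABP1 and CRABP2, the degrading enzymes CYP26A1 and CYP26B1, and the synthesising enzyme ALDH1A2. They were picked by name as 10 of the 31017 genes in the RNA-seq count table. The promoter bait of a gene was the HindIII fragment that held its annotated start, and 9 of the 10 genes had such a bait among the 21833 baits in the interaction lists. ALDH1A2 was the exception. The ESCs were the line H9 (WA09), kept undifferentiated in Pluripro medium and matrix, and the NECs were H9 cells differentiated by a published protocol and collected on day 7, so both groups are 1 line, for which the labels give no genetic change. Each cell type had 2 biological replicates for RNA-seq and 2 for Promoter Capture Hi-C (PCHi-C), a method that enriches ligated pairs of DNA fragments for those holding a promoter. The methods that were read do not say whether the differentiation medium held a retinoid or vitamin A.

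Retinoic acid is made from vitamin A. RDH and DHRS enzymes interconvert retinol and retinaldehyde, and ALDH1A enzymes turn retinaldehyde into retinoic acid, while CYP26 enzymes oxidise retinoic acid for removal. CRABP1 and CRABP2 bind retinoic acid in the cytoplasm, and CRABP2 is known to carry it to the nucleus. There it binds a RAR (RARA, RARB or RARG), which pairs with an RXR on DNA at direct repeats of a short core element, and the pathway is known for setting position along the head to tail axis of the early nervous system. RARB and CYP26A1 are textbook direct targets of the receptors.

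Such a repeat was found in promoters of these 2 textbook targets. Promoters were read from the RefSeq table (GRCh38.p14), from 250 bases before to 50 bases after each listed start, and 18 promoters of the 10 genes were found in it. The letters GNTCANNNNNNGNTCA, which spell a direct repeat with a spacer of 5 bases (DR5) when the first base of each element is left free, were searched on both strands. They were present in 2 of the 18 promoters, 1 of RARB and 1 of CYP26A1, and in 256 of all 35116 promoters, or 0.729%. Per gene these were 2 of 10 against 0.908% of 27305 genes. Both genes were already known targets of receptors that bind such repeats, so the shares are no test of enrichment. The matching stretches, in which capitals mark the repeat and small letters the flanking bases, are written 5′ to 3′ along the gene's strand. Their GRCh37 positions were found by exact match, and both lie upstream of a listed start of their gene. Both also lie downstream of other starts, such as the listed CYP26A1 start at 94833232 and the annotated RARB transcript start at 25469377.
RARB, plus strand, repeat at chr3:25469701-25469717, from 53 to 37 bases before the start: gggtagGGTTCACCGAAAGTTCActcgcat
CYP26A1, plus strand, repeat at chr10:94833560-94833576, from 90 to 74 bases before the start: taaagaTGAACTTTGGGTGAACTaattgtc
The RARB repeat reads forwards along the gene, and the CYP26A1 repeat reads forwards on the opposite strand. Repeats with a spacer of 2 bases (DR2, GNTCANNNGNTCA) or of 1 base (DR1, GNTCANNGNTCA) were found in 0 of the 18 promoters, against 0.678% and 0.766% of all promoters. A match is a description of the letters only, and binding was not measured.

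The promoters of CRABP1 and CRABP2 are shown because these genes had the highest RNA levels per exon length of the group in NECs. Neither held a DR5, DR2 or DR1 in the searched window. The stretch of CRABP1 covers the 250 bases before its start, and that of CRABP2 ends 33 bases before its listed start, where an annotated exon begins. Capitals mark the GC box GGGCGG, searched on both strands with overlapping matches counted, which 42.6% of all promoters held at least once in the 250 bases before the start.
CRABP1, plus strand, chr15:78632445-78632694: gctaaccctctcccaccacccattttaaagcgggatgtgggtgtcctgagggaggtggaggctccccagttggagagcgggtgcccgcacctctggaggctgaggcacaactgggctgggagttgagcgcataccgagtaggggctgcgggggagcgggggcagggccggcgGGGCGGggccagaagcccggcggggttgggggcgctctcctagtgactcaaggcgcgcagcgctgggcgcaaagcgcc
CRABP2, minus strand, chr1:156675609-156675826: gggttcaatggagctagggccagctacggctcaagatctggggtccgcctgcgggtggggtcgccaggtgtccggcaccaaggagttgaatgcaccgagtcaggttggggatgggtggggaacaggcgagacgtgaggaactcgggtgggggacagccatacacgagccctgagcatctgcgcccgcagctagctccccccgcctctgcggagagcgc
CRABP1 held 1 GC box in this stretch and CRABP2 held 0. The G and C content was 70% for CRABP1 and 66.5% for CRABP2, against a median of 58.0% over all promoters.

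The RNA-seq libraries held 19234087 and 25356382 counts in ESCs and 20793224 and 24323762 in NECs. Both ESC libraries came from 1 sequencing lane and both NEC libraries from another, so lane and cell type cannot be told apart. Replicates of a cell type had a Spearman's rho across genes of 0.994 in ESCs and 0.991 in NECs, against 0.867 to 0.897 between cell types. Of 8 pluripotency markers 7 were called lower in NECs, and of 8 neuroectoderm markers 6 were called higher. Of the 2 neuroectoderm markers not called, NES was higher in both NEC libraries than in both ESC libraries, and OTX2 was lower. The markers also separated replicates of the same cell type. CPM below are read counts scaled to the usual common total by library size, taken over the genes kept for testing and adjusted by TMM normalization. The summed CPM of 8 neural crest markers were 170 in the first NEC replicate and 46.3 in the second, while both ESC libraries had 127. Most of the ESC sum was ETS1, with 106 and 105 CPM in ESCs against 28.5 and 4.86 in NECs. Of the 8 markers 4 were called higher in NECs and 1, ETS1, was called lower, so the sum does not rank the cell types. POU5F1, a defining pluripotency factor, stood at 31.0 CPM in the first NEC replicate and 111 in the second. The summed CPM of 8 mesendoderm markers was 39.0 in ESC replicate 1, 107 in ESC replicate 2, and 7.39 and 5.47 in the NEC libraries.

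Of the 10 genes, 9 passed the filter on low counts and were tested, and 4 of the 9 were called higher in NECs: CRABP1, CRABP2, CYP26B1 and RARB. A gene was called when its adjusted p was under 0.05 and its absolute log2 fold change (NEC over ESC) was above 1.5 in edgeR's quasi-likelihood test with Benjamini-Hochberg adjustment over all 17564 tested genes. Of all tested genes, 11.4% were called higher and 9.68% lower, or 21% in either direction. None of the 9 was called lower. In 8 of the 9 both NEC libraries were above both ESC libraries in CPM, and in RARG both were below, where the shares of all tested genes were 42.8% and 41%. Without the requirement on fold change, 8 of the 9 passed, 7 of them higher and RARG lower, where 61.1% of all tested genes passed. The median log2 fold change of the 9 was 1.36, against 0.01 over all tested genes. In bulk RNA, fewer cells of a type and less RNA per cell cannot be told apart.

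**Figure D1:**
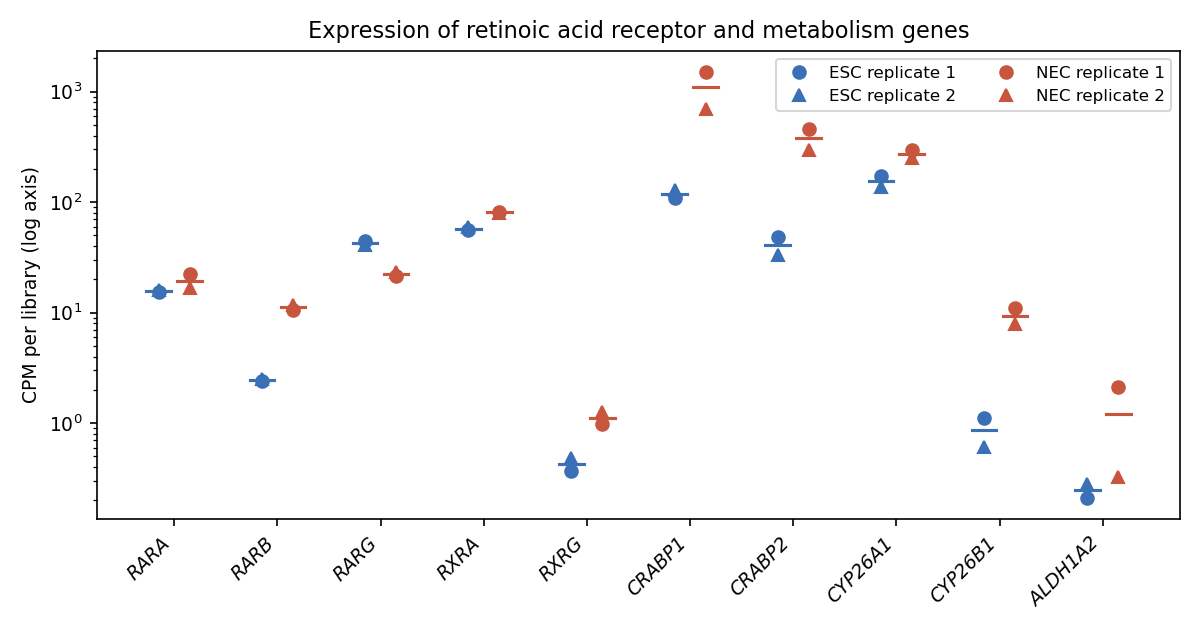
CPM (log axis) of the 10 genes in each RNA-seq library, with ESC libraries in blue and NEC libraries in red, circles for replicate 1 and triangles for replicate 2, and a bar for the mean of each cell type. CRABP1, CRABP2, CYP26B1 and RARB sit far apart between the cell types, RARG is the one gene whose NEC points lie below its ESC points, and the NEC points of ALDH1A2 lie far from each other.

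Among the retinoic acid receptors, RARB rose, RARG fell and RARA did not pass the test. RARB (ENSG00000077092, chr3:25215823-25639423, plus strand) had 2.38 and 2.51 CPM in ESC replicates against 10.6 and 11.8 in NEC replicates. The ranges were far apart, with means of 2.45 ± 0.088 in ESCs and 11.2 ± 0.86 in NECs (SD, n = 2). Its log2 fold change was 2.19 with a standard error of 0.20 and an adjusted p of 0.00025 in edgeR.

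RARG (ENSG00000172819, chr12:53604354-53626764, minus strand) moved the other way. It had 44.8 and 41.2 CPM in ESCs and 21.5 and 23.1 in NECs. Both NEC values were below both ESC values, 1.92-fold by the fitted change, with a log2 fold change of -0.94 with a standard error of 0.11 and an adjusted p of 0.00055 in edgeR. This was within the fold threshold, so RARG was not called. RARA (ENSG00000131759, chr17:38465436-38513895, plus strand) had 15.4 and 16.2 CPM in ESCs and 22.4 and 16.6 in NECs. The difference was of the size of the NEC spread, with a log2 fold change of 0.30, a standard error of 0.17 and an adjusted p of 0.17 in edgeR. In the annotation, 21.4% of the exon bases of RARA are shared with genes on the opposite strand, and the reads were counted without regard to strand.

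Levels between genes can only be set side by side per exon length, as RPKM, the CPM divided by the length of the exons in kilobases. On that scale RARG was the most abundant of the 3 RARs in ESCs, with 8.73 and 8.03 RPKM, followed by RARA with 3.25 and 3.41 and RARB with 0.252 and 0.266. These ranges did not overlap. In NECs the ranges of RARG (4.19 and 4.51 RPKM) and RARA (4.72 and 3.50 RPKM) overlapped, and RARB stayed below both with 1.12 and 1.25 RPKM. Exon lengths came from a newer annotation than the counts. For RARB that length takes in transcripts that start at 24729378, before the start of the counted gene. The RPKM of RARB may therefore be too low, and its place in any order rests on that length.

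Both RXRs on the list had higher values in NECs without being called. RXRA (ENSG00000186350, chr9:137208944-137332431, plus strand), the partner found in most tissues, had 55.5 and 59.1 CPM in ESCs and 81.7 and 80.3 in NECs. Its log2 fold change was 0.50 with a standard error of 0.09 and an adjusted p of 0.0032 in edgeR, a rise that passed the test but not the fold threshold. RXRG (ENSG00000143171, chr1:165370159-165414433, minus strand), the most tissue-restricted RXR, was near the lower end of detection with 7 and 12 reads in ESCs and 21 and 31 in NECs. Its log2 fold change was 1.36 with a standard error of 0.38 and an adjusted p of 0.019 in edgeR, but DESeq2 gave an adjusted p of 0.21, and the adjusted p in edgeR was 0.15 without ESC replicate 1, 0.090 without ESC replicate 2 and 0.088 without NEC replicate 2. Without NEC replicate 1, RXRG was called, with a log2 fold change of 1.53.

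The 2 cytoplasmic binding proteins showed the largest gains in CPM. CRABP1 (ENSG00000166426, chr15:78632666-78640572, plus strand) had 110 and 128 CPM in ESCs and 1509 and 702 in NECs. Every NEC value was above every ESC value, but the NEC replicates themselves differed by 2.15-fold. The means were 119 ± 12.8 CPM in ESCs and 1105 ± 570 in NECs (SD, n = 2), a log2 fold change of 3.22 with a standard error of 0.36 and an adjusted p of 0.00052 in edgeR. Without NEC replicate 1, the library with the higher sum of neural crest markers, the log2 fold change was 2.57, and without NEC replicate 2 it was 3.66, and CRABP1 was called both times. The part of the neural crest markers in this difference between replicates was not tested. In the newer annotation 45.9% of the exon bases of CRABP1 are shared with a gene on the opposite strand that is not in the count table under its symbol or identifier.

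CRABP2 (ENSG00000143320, chr1:156669398-156675608, minus strand) had 48.4 and 33.0 CPM in ESCs and 459 and 299 in NECs. Its means were 40.7 ± 10.9 and 379 ± 113 CPM (SD, n = 2), with a log2 fold change of 3.22, a standard error of 0.26 and an adjusted p of 0.00018 in edgeR. Per exon length, CRABP1 was the most abundant of the 10 genes in both cell types, with 115 and 133 RPKM in ESCs and 1573 and 732 in NECs. CRABP2 followed in NECs with 425 and 277 RPKM. In ESCs CRABP2, with 44.7 and 30.51 RPKM, came after CYP26A1, with 58.8 and 46.3.

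The 2 degrading enzymes differed in where they started. CYP26A1 (ENSG00000095596, chr10:94833232-94837647, plus strand) was already abundant in ESCs, with 174 and 137 CPM, and reached 294 and 253 in NECs. The change passed the test at a size under the fold threshold, with a log2 fold change of 0.81, a standard error of 0.14 and an adjusted p of 0.0031 in edgeR. In the newer annotation 25.3% of its exon bases are shared with a gene on the same strand that is not in the count table. CYP26B1 (ENSG00000003137, chr2:72356367-72375167, minus strand) had 21 and 15 reads in ESCs, which is 1.11 and 0.607 CPM, and 234 and 194 reads in NECs, which is 10.95 and 7.86 CPM. Its log2 fold change of 3.48, with a standard error of 0.35 and an adjusted p of 0.00037 in edgeR, was the largest of the 9 tested genes, yet per exon length it stayed at 2.26 and 1.63 RPKM in NECs, far below the 99.2 and 85.3 RPKM of CYP26A1 there.

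ALDH1A2 (ENSG00000128918, chr15:58245622-58790065, minus strand), the main retinoic acid synthesising enzyme of early embryos, was at the limit of detection. It had 4 and 7 reads in ESCs and 45 and 8 in NECs, so that the first NEC library stood above the other 3 and the second was close to the ESC libraries. It did not pass the filter on low counts and was not tested with the rest. Without that filter it had a log2 fold change of 2.22 and an adjusted p of 0.0060 in edgeR, while DESeq2 gave 2.26 with an adjusted p of 0.10. NEC replicate 1, with the 45 reads, was also the library with the higher neural crest marker sum, and the part of that difference was not tested.

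The order of the levels per exon length in ESCs, from the highest, was CRABP1, CYP26A1, CRABP2, RARG, RXRA, RARA, RARB, CYP26B1, RXRG and ALDH1A2. The ranges of CYP26B1 and RXRG, at 0.1254 to 0.230 and 0.138 to 0.180 RPKM, overlapped, and no other neighbours in this order did. In NECs the order was CRABP1, CRABP2, CYP26A1, RXRA, RARG, RARA, CYP26B1, RARB, RXRG and ALDH1A2, and the overlap was between RARG and RARA. Each length joins the exons of all annotated transcripts of a gene, 12077 bases for RXRA. Both orders depend on these lengths, which the replicate ranges do not cover.

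The rest of the pathway was read from 3 lists of other genes. Of the 38 genes on them 32 were tested, and 12 were called higher, 3 lower and 17 were not called, beside the 11.4% of all tested genes called higher and 9.68% called lower.

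**Figure D2:**
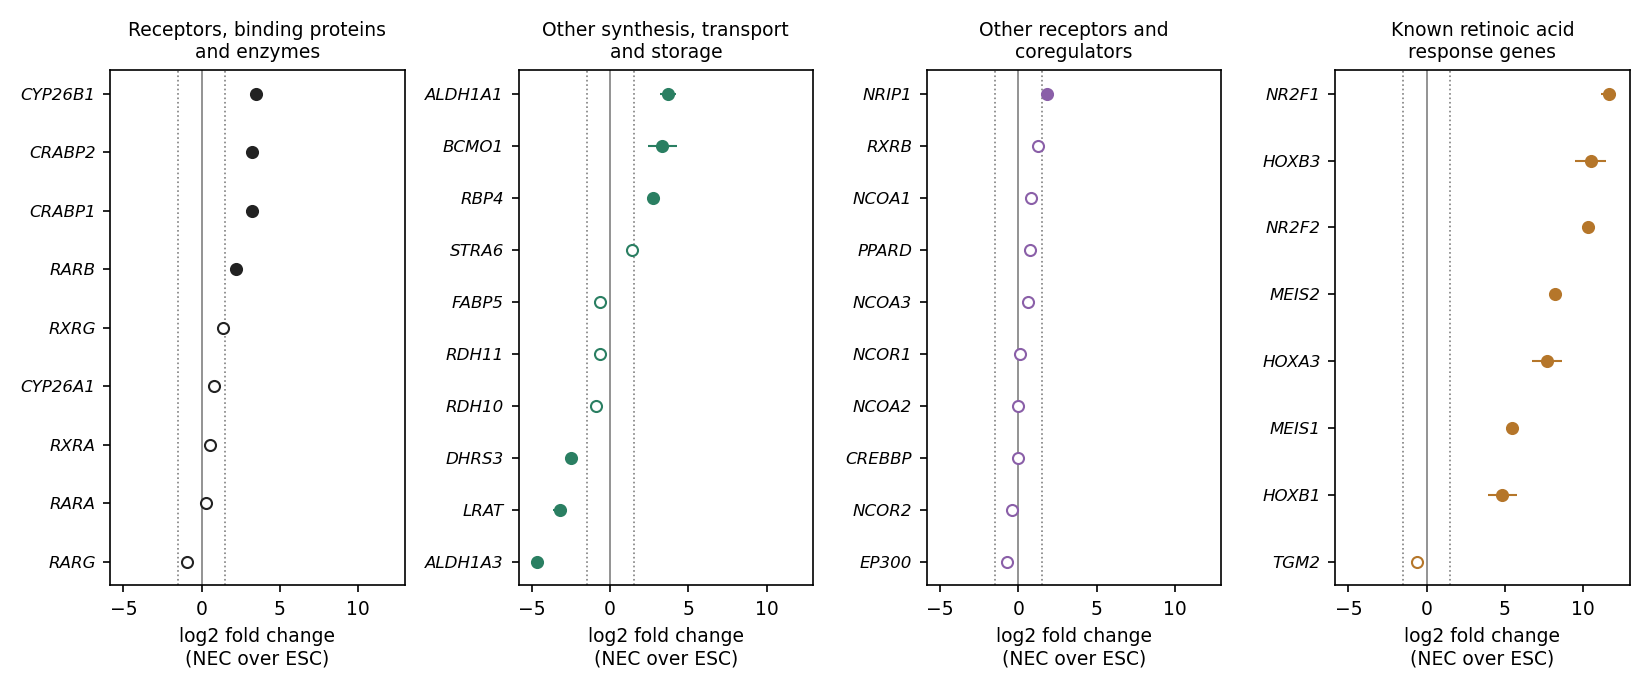
Log2 fold change (NEC over ESC) of tested genes in edgeR with bars for its standard error, where shown outside the point, in 4 panels for the receptors, binding proteins and enzymes followed here and for 3 lists of other pathway genes, of which some genes are not shown. Filled points were called and open points were not, dotted lines mark a log2 fold change of 1.5 in either direction, and fitted values of HOXA3, HOXB3, NR2F1, NR2F2 and BCMO1 rest on ESC counts of 3 or fewer per library and are no measure of size.

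Genes of synthesis, transport and storage moved in both directions: of 13 genes 11 were tested, 3 were called higher, 3 lower and 5 were not called, with a median log2 fold change of -0.63. ALDH1A3, a synthesising enzyme, fell from 20.7 and 19.9 CPM in ESCs to 1.12 and 0.486 in NECs, a log2 fold change of -4.67 ± 0.32 (SE). ALDH1A1, its relative, had 3 and 7 reads in ESCs and 44 and 95 in NECs, a log2 fold change of 3.67 ± 0.51 (SE). So the 2 ALDH1A genes that were tested moved in opposite directions, and the highest NEC value of either was 3.85 CPM.

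LRAT, which esterifies retinol for storage, fell from 37.8 and 41.7 CPM to 1.92 and 6.65. The higher NEC value was in replicate 2, which also had the higher level of POU5F1, and the part of the pluripotency markers in it was not tested. DHRS3, which reduces retinaldehyde back to retinol, fell from 17.2 and 9.71 CPM to 2.39 and 2.43. RBP4, the carrier of retinol in blood, rose from 0.848 and 1.17 CPM to 5.43 and 8.15.

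BCMO1, which cleaves beta-carotene to retinaldehyde, had 3 and 3 reads in ESCs and 52 and 13 in NECs, a ratio of 10.3 with an exact binomial 95% interval of 4.47 to 29.0 that covers counting error only. It lost its call without ESC replicate 2 (adjusted p = 0.060) and without NEC replicate 1 (adjusted p = 0.058). The genes that were not called included STRA6, RDH10, RDH11 and FABP5, whose log2 fold changes lay between -0.92 and 1.37. STRA6, the cellular receptor for retinol bound to RBP4, was nearest to the threshold, with 19.2 and 16.1 CPM in ESCs and 50.4 and 41.0 in NECs. DHRS9 and CYP26C1, the neighbour of CYP26A1, had at most 3 reads in every library.

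Of 10 other receptors and coregulators, all tested, 1 was called, a share no higher than the 21% of all tested genes. NRIP1, a corepressor known to be induced by retinoic acid, rose from 30.3 and 32.8 CPM to 106 and 121, a log2 fold change of 1.84 ± 0.11 (SE). The other 9 had log2 fold changes between -0.73 for the acetyltransferase EP300 and 1.24 for RXRB, the remaining RXR gene. RXRB had 19.1 and 17.8 CPM in ESCs and 46.4 and 40.9 in NECs, a rise that passed the test but not the fold threshold.

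Genes known to respond to retinoic acid were mostly higher in NECs. Of 15 genes 11 were tested, 8 were called higher, 0 lower and 3 were not called, with a median log2 fold change of 5.47, or 4.84 when genes at the floor (3 counts per library) take their bound. MEIS2, a homeodomain cofactor of HOX proteins, rose from 0.265 and 0.324 CPM to 95.04 and 82.5. Its relative MEIS1 rose from 0.530 and 0.566 CPM to 29.1 and 20.3.

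Among the HOX genes at the front end of the clusters, HOXB1 had 2 and 5 reads in ESCs and 165 and 44 in NECs. HOXB3 had 0 reads in both ESC libraries and 230 and 124 in NECs, which is at least 56.3-fold higher, and HOXA3 with 30 and 23 reads in NECs was at least 8.33-fold higher. HOXA4 had 0 reads in all 4 libraries, and HOXB4 had 8 in NEC replicate 1 and 0 in the other libraries.

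The orphan receptors NR2F1 and NR2F2 had 2 and 3 reads over both ESC libraries against 7355 and 4274 over both NEC libraries, ratios of 3483 (exact binomial 95% interval 964 to 28770) and 1349 (461 to 6546), where the intervals cover counting error only and the ratios rest on these 2 and 3 reads. TGM2 was tested and not called. Many of these genes also mark neural tissue in general, and the lists were chosen with results of these data known, so the counts describe the lists and were not tested for a response to retinoic acid.

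The second assay listed which fragments each promoter contacted. The partner fragment in a call is named a promoter-interacting region (PIR) of its bait, and each call carries a CHiCAGO score, a p-value on a negative log scale, weighted by distance and computed against a background model. The authors deposited calls with a score of at least 12 from single replicates and from both replicates of a cell type joined (merged). The score lists hold no read numbers, so the depth behind a score is unknown, and with 2 replicates against 2 the smallest exact two-sided permutation p is 0.333, so no permutation test of PIR numbers could pass 0.05, and no other test of them was made.

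Merged calls gave the 9 baits 88 PIRs in ESCs and 68 in NECs. Single replicates gave them 67 and 58 in ESCs against 47 and 47 in NECs. The ranges did not overlap, although the total number of calls in the lists, 95283 and 86429 in ESCs and 100305 and 81168 in NECs, did. Without the baits of CRABP1 and CYP26A1 the other 7 had 31 and 34 PIRs in ESCs against 32 and 30 in NECs, which overlap; these 2 baits were picked after their values were seen. Of the merged PIRs 47 were in both cell types, which is 53.4% of those in ESCs and 69.1% of those in NECs. Over all baits the shares were 44.2% and 44.3%. PIRs lay at a median distance of 133.9 kb in ESCs and 128.2 kb in NECs, against 196.5 and 217.4 kb over all calls on the same chromosome. Of these PIRs 24 in ESCs and 19 in NECs were baits themselves.

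**Figure D3:**
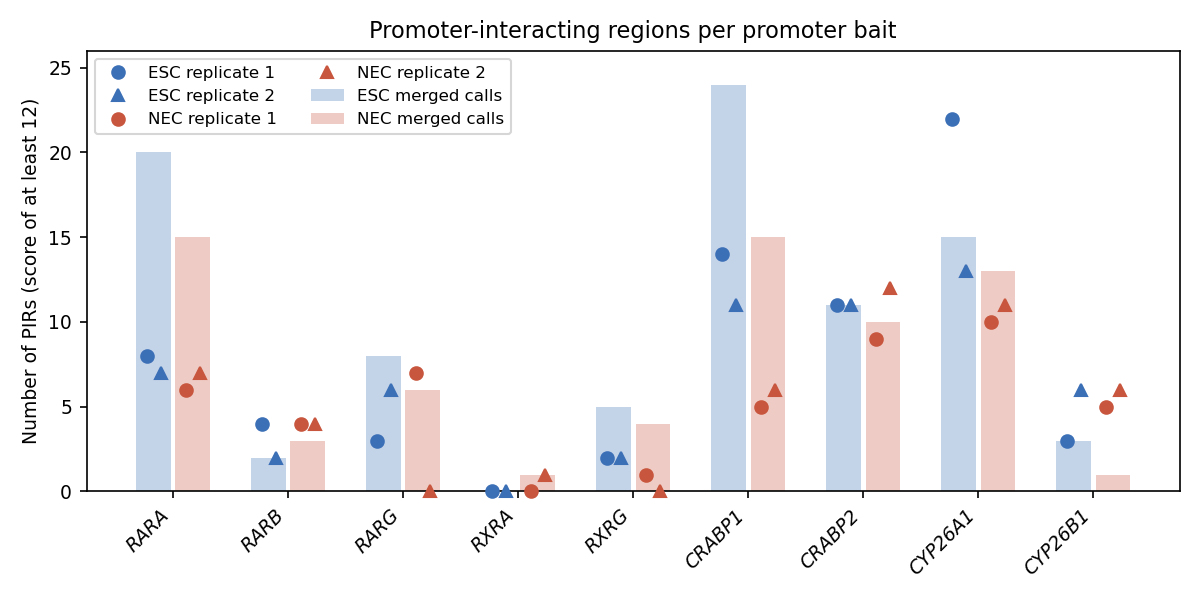
Number of PIRs with a CHiCAGO score of at least 12 for the promoter baits of 9 genes, with bars for the merged calls, circles for replicate 1 and triangles for replicate 2, ESCs in blue and NECs in red. CRABP1 shows the widest gap between the cell types, with 14 and 11 PIRs in ESC replicates against 5 and 6 in NEC replicates, while the points of CRABP2 overlap.

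For 3 of the 9 baits, those of CRABP1, CYP26A1 and RXRG, both NEC replicates had fewer PIRs than both ESC replicates. For none of the 9 did both have more. Over all 21768 baits with a call in a replicate, 12.9% had fewer and 13.2% had more. Among the 6007 baits with at least 20 calls summed over the replicates the shares were 16.1% and 17.4%. The baits of CRABP1 and CYP26A1 are among those 6007, and that of RXRG is not. The CRABP1 bait (chr15:78627109-78639667) had 14 and 11 PIRs in ESC replicates against 5 and 6 in NEC replicates. Its merged calls numbered 24 in ESCs, more than 97.1% of the baits with a merged ESC call, and 15 in NECs, and 12 were in both. RNA of the same gene was 9.29-fold higher in NECs by the fitted change.

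The merged ESC contacts of CRABP1 spanned 370 kb with the bait and went through IREB2, PSMA4 and the acetylcholine receptor genes CHRNA5 and CHRNB4, with the farthest PIR at 337.5 kb. In the merged NEC calls of the CRABP1 bait the span was 177 kb and the farthest PIR lay at 137.2 kb, within IREB2. None of the merged ESC contacts beyond 156.9 kb was called in both ESC replicates, and NEC replicate 1 had a call at 221.3 kb with a score of 12.8. The best scored contact in both cell types was the same intergenic fragment, chr15:78687294-78690325, 55.4 kb away. Its merged score was 19.8 in ESCs and 23.3 in NECs, and it was called in all 4 replicates, with scores of 15.5, 12.5, 16.6 and 13.9. A second intergenic fragment at 83.2 kb (chr15:78711521-78721598) had a merged score of 14.9 in ESCs and 19.6 in NECs and was called in both NEC replicates and in ESC replicate 1.

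There were 2 CRABP1 contacts called in both ESC replicates and in neither NEC replicate. The first, in exons of IREB2 at 156.9 kb (chr15:78787704-78792944), had scores of 14.3 and 12.5 in the ESC replicates and was absent from the merged NEC calls. The second, intergenic at 26.2 kb (chr15:78603821-78610508), had scores of 12.13 and 12.01 in the ESC replicates and was in the merged calls of both cell types, at 16.2 and 12.4. Both replicate scores of the second were just above the threshold of the lists.

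The CRABP2 bait (chr1:156668090-156682728) had the contacts that recurred most across replicates. It had 11 and 11 PIRs in ESC replicates against 9 and 12 in NEC replicates. Of its merged PIRs 9 were in both cell types, 81.8% of the 11 in ESCs and 90% of the 10 in NECs. In contrast to CRABP1, all merged PIRs of CRABP2 in both cell types were baits. Of 19 PIRs called in any replicate 5 were called in all 4, or 26.3%, against 2.85% over all 274669 interactions called in any replicate. All 5 were baits. The share over all interactions mixes PIRs that are baits with others, and no share was computed for bait pairs alone.

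Those 5 held the starts of ISG20L2 and RRNAD1 at 22.3 kb, MRPL24 at 36.0 kb, PRCC at 44.1 kb, APOA1BP at 115.5 kb and INSRR at 154.2 kb. INSRR encodes a receptor related to the insulin receptor. Its fragment scored 26.2 and 25.9 in ESC replicates against 14.5 and 16.4 in NEC replicates, so the ranges were far apart. ISG20L2 and RRNAD1 gave the highest merged ESC score of the PIRs described here, 36.45, with 25.97 in NECs, but their replicate scores of 29.5 and 21.8 in ESCs and 21.9 and 15.1 in NECs overlapped.

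NES, read above as a marker, was among the genes contacted by CRABP2, and RNA of the other contacted genes is not reported here. The bait fragment that holds the starts of RP11-284F21.7 and of NES (chr1:156622326-156650015), the neural progenitor filament nestin, scored 18.0 and 15.3 in the NEC replicates. In the merged NEC calls this fragment scored 21.2. In ESCs it scored 12.6 in replicate 2, and it was in neither replicate 1 nor the merged calls. NES had 484 and 572 CPM in ESCs and 1347 and 1565 in NECs, a log2 fold change of 1.46 ± 0.14 (SE), just under the threshold. The reverse call, from the NES bait to the CRABP2 fragment, was in none of the lists. A contact with an IQGAP3 fragment at 173.7 kb was called in both ESC replicates, with scores of 15.6 and 13.6, and in neither NEC replicate.

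**Figure D4:**
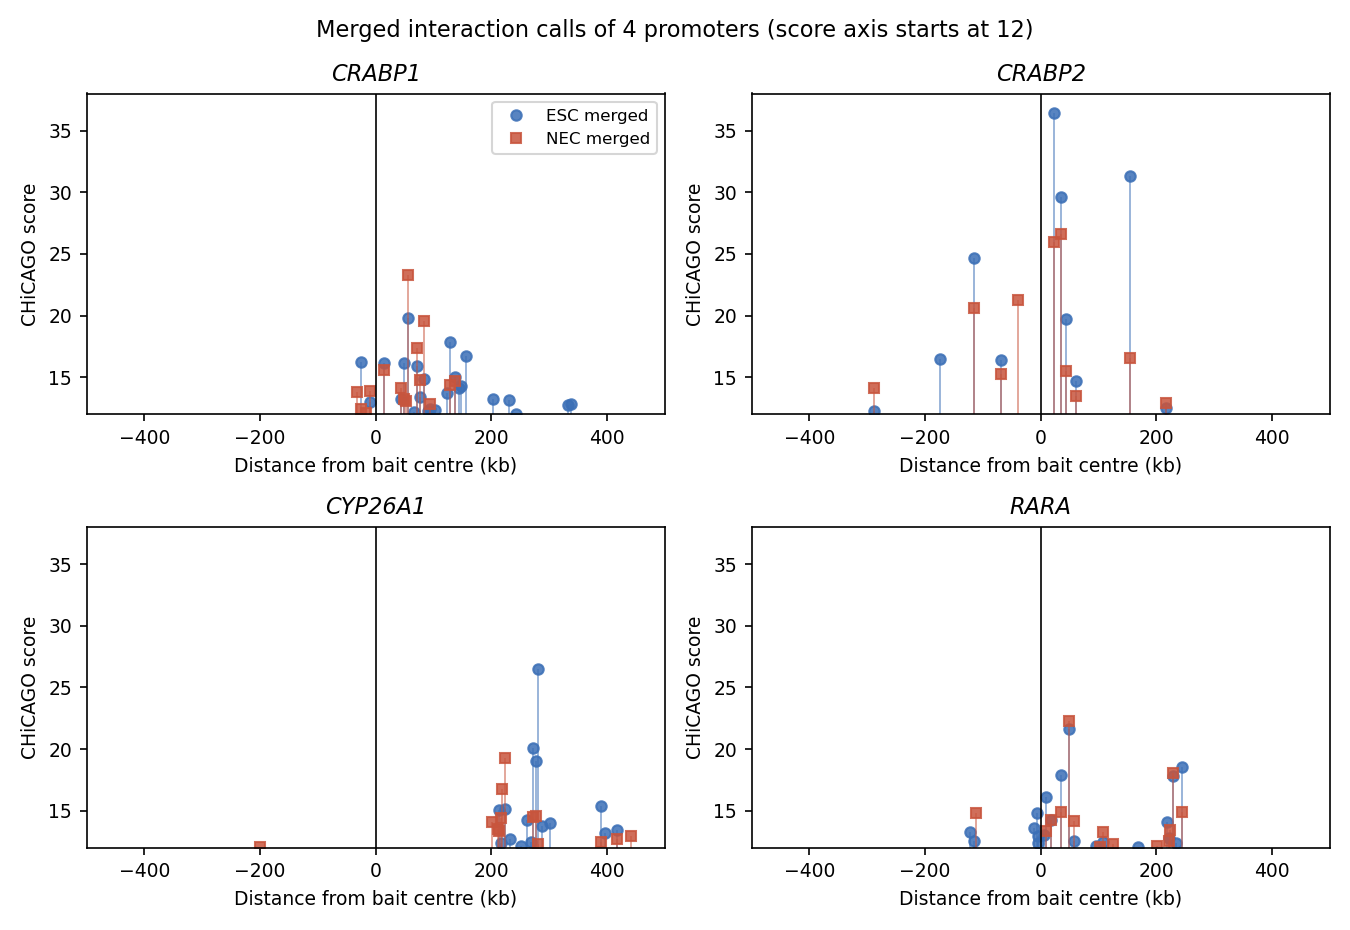
CHiCAGO score of each merged call (axis starting at 12) against the distance of the PIR from the bait centre, within 500 kb, for the baits of CRABP1, CRABP2, CYP26A1 and RARA, with blue circles for ESCs and red squares for NECs. Calls of CYP26A1 lie between 199.4 and 442.1 kb with none close to the bait, those of CRABP1 in NECs end at 137.2 kb, and 1 ESC call of CRABP2 and 1 NEC call of RARA lie outside the window.

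Contacts of the CYP26A1 bait (chr10:94831385-94838376) lay almost all on 1 side and far away. All 15 merged PIRs in ESCs and 12 of 13 in NECs lay at higher coordinates, between 201.6 and 442.1 kb from the bait, mostly in and next to MYOF, which encodes the membrane protein myoferlin. Its replicates had 22 and 13 PIRs in ESCs against 10 and 11 in NECs. The ESC replicates thus differed more from each other than ESC replicate 2 did from the NEC replicates.

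Of these contacts, 2 were called in all 4 replicates. An intergenic fragment at 223.1 kb (chr10:95055261-95060647) had a merged score of 15.2 in ESCs and 19.3 in NECs, its highest contact in NECs, with replicate scores of 12.58 and 17 against 19.1 and 12.5 that overlapped. A fragment with MYOF exons at 276.3 kb (chr10:95109850-95112530) scored 18.6 and 16.1 in ESC replicates against 14.2 and 12.7 in NEC replicates. The highest ESC contact lay right beside it, at 280.4 kb (chr10:95112531-95118088), and had merged scores of 26.5 in ESCs and 12.3 in NECs. A contact at 260.7 kb in MYOF was called in both ESC replicates and in neither NEC replicate, with scores of 12.4 and 14.9. The CYP26A1 fragment itself was contacted from the baits of MYOF and CEP55, each at a score under 13.

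The CYP26B1 bait (chr2:72373710-72376024) had 3 and 6 PIRs in ESC replicates against 5 and 6 in NEC replicates. These numbers overlapped, but no merged PIR was in both cell types. The 3 merged PIRs in ESCs lay 600.5 kb or more from the bait, in an intron of EXOC6B and at the starts of SPR and EMX1, and scored between 12.4 and 14.1. Of these, the EXOC6B fragment at 600.5 kb was also called in NEC replicate 1, at 14.16 beside 12.49 and 14.07 in ESCs, and the SPR fragment at 744.1 kb in NEC replicate 2, at 12.05. In NECs the 1 merged PIR was an intergenic fragment at 222.7 kb on the other side (chr2:72148529-72155864), which scored 12.4 and 14.5 in the NEC replicates and was in neither ESC replicate.

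Among the receptors, the RARA bait (chr17:38460840-38466232) had the most contacts, 20 merged PIRs in ESCs and 15 in NECs with 9 in both. The single replicates had 8 and 7 in ESCs and 6 and 7 in NECs, which overlap. Its highest merged contact in both cell types was the fragment with the last part of RARA itself and GJD3, at 48.9 kb, with a merged score of 21.7 in ESCs and 22.3 in NECs and calls in 3 replicates. The contact called in all 4 replicates was an intergenic fragment at 228.6 kb (chr17:38688681-38695675), with merged scores of 17.9 and 18.1. The contact called in both NEC replicates and in neither ESC replicate was a DNAJC7 fragment at 1689.9 kb, with scores of 12.04 and 12.17.

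Other promoters contacted the RARA fragment from their own baits. The GJD3 bait did so in all 4 replicates, with merged scores of 17.6 in ESCs and 25.9 in NECs and replicate scores of 14.95 and 12.22 against 17.4 and 15.5. The TNS4 bait did so in all 4 replicates too, with merged scores of 16.9 and 13.8 and replicate scores of 16.5 and 16.4 in ESCs against 13.7 and 12.6 in NECs. Neither pair of ranges overlapped, and they differed in opposite directions.

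The RARB bait (chr3:25214660-25216559) had 2 merged PIRs in ESCs and 3 in NECs. All of these PIRs were baits themselves. The best scored was an intronic fragment of RARB at 382.7 kb (chr3:25594495-25602084), at 21.3 in ESCs and 13.8 in NECs. Single scores were 21.8 and 16.5 in the ESC replicates, 14.7 in NEC replicate 1 and no call in NEC replicate 2. The RARB start with the DR5 shown above lies in another fragment, chr3:25464262-25472078, with the starts of 9 annotated transcripts of which 6 are protein coding. That fragment was neither a bait nor a PIR in any list. The RARB bait held the start of 1 transcript that is annotated as a target of nonsense-mediated decay. So the contacts listed for RARB are not those of its DR5 start. CYP26A1 was different, since its DR5 start and its bait were on the same fragment.

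The RARG bait (chr12:53612753-53634559), with 21807 bases the longest of the 9, had 3 and 6 PIRs in ESC replicates against 7 and 0 in NEC replicates. The NEC replicates differed more from each other than from either ESC replicate. Its contact with the start of PFDN5, a subunit of the chaperone prefoldin, at 66.9 kb scored 12.2 and 16.2 in the ESC replicates and was in neither NEC replicate, but it was in both merged lists, at 18.2 in ESCs and 14.2 in NECs. The highest merged ESC contact was the start of IGFBP6 at 131.5 kb, at 18.7 in ESCs and 13.0 in NECs.

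The RXRG bait (chr1:165413327-165420819) had 2 and 2 PIRs in ESC replicates against 1 and 0 in NEC replicates, at most 2 in any replicate. Its merged PIRs, 5 in ESCs and 4 in NECs with 3 in both, lay within 160.2 kb on the side of LRRC52. The highest in both cell types was an intergenic fragment at 145.2 kb (chr1:165561476-165563101), at 15.9 in ESCs and 14.2 in NECs. LRRC52 was also linked from its own bait, which called the RXRG fragment in all 4 replicates, at 14.95 and 14.3 in ESCs and 13.69 and 15.03 in NECs, ranges that overlapped. The bait of RP11-280O1.2 called it at 16.97 and 18.62 in ESCs, at 14.1 in the first NEC replicate, and not in the second.

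The RXRA bait (chr9:137207468-137210397) had 0 PIRs in ESCs and 1 in NECs, an intergenic fragment at 127.7 kb with a merged score of 13.4. The start of the protein coding transcript that lies nearest to the bait, at position 137218301, is on the next fragment, which was not a bait.

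**Figure D5:**
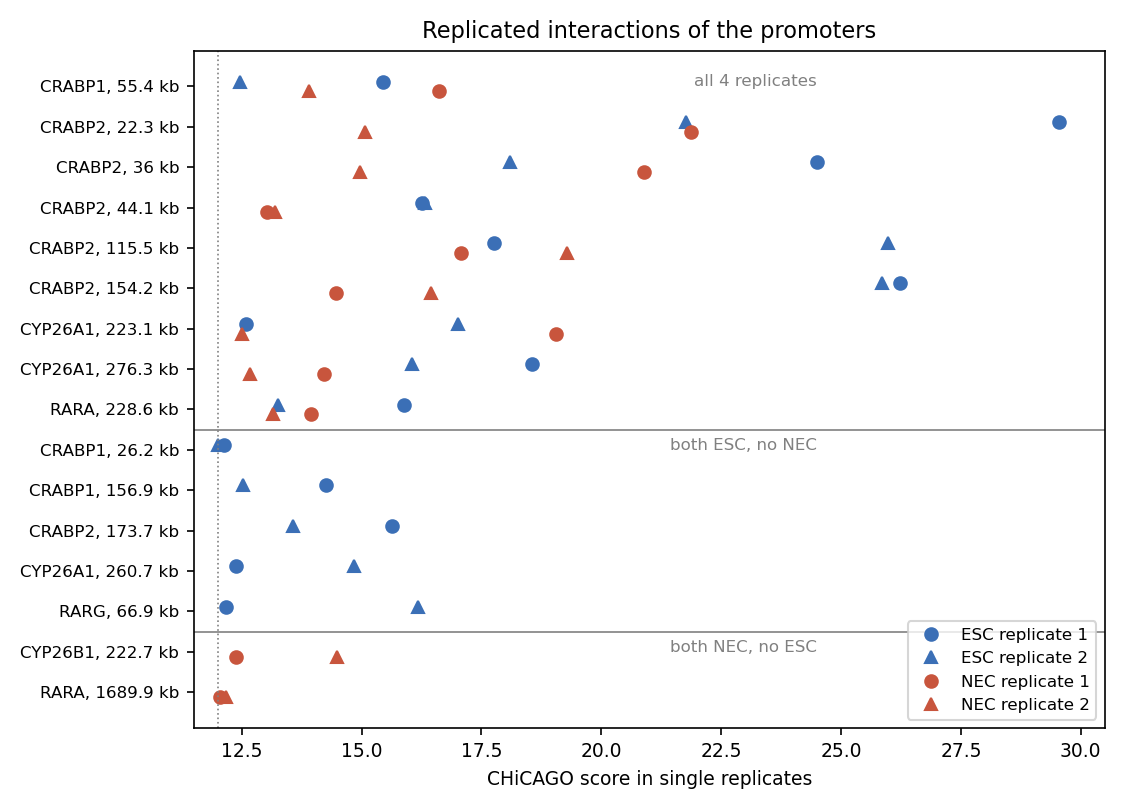
CHiCAGO score in single replicates of the 16 contacts that were called in all 4 replicates (9 rows, top), in both ESC and neither NEC replicate (5 rows, middle) or in both NEC and neither ESC replicate (2 rows, bottom), named by gene and distance, with ESCs in blue, NECs in red, circles for replicate 1, triangles for replicate 2 and a dotted line at the threshold of 12. Blue and red points stand fully apart in 3 of the 9 top rows, and several middle and bottom points lie close to the dotted line.

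Of the 143 contacts of the 9 baits called in any replicate, 9 were called in all 4 replicates. This is 6.29% beside the 2.85% of all interactions. Of these 9, 5 belonged to CRABP2, all of them with PIRs that are baits, and no share was computed for bait pairs alone. In addition, 5 contacts (3.5%) were called in both ESC replicates and in neither NEC replicate, and 2 (1.4%) the other way round, where the shares over all interactions were 2.56% and 2.46%. Of the 9 contacts in all 4 replicates, 3 had both NEC scores below both ESC scores (CRABP2 with INSRR, CRABP2 with PRCC, and CYP26A1 with MYOF at 276.3 kb) and 0 had both above. Over all 7822 such interactions 16.1% were below and 20.9% above.

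ALDH1A2 has its most distal annotated start outside any bait, but the fragment chr15:58350880-58359135, which holds 5 of its annotated transcript starts including 3 protein coding ones, was a bait. That bait had 10 and 6 PIRs in ESC replicates against 8 and 12 in NEC replicates, which overlap, and 19 merged PIRs in ESCs and 25 in NECs with 11 in both. None of them was a bait. In NECs the strongest formed a run of adjacent fragments in POLR2M, 305.9 to 330.8 kb away. The highest there had merged scores of 17.3 in ESCs and 28.6 in NECs (chr15:58028369-58035965), but it was called in ESC replicate 1 at 14.5 and not in ESC replicate 2, against 18.3 and 16.1 in the NEC replicates. Calls in all 4 replicates were made for 3 PIRs, 2 of that run and an intergenic fragment at 197.0 kb (chr15:58157400-58158644) with merged scores of 20.1 and 18.5. In ESCs, where ALDH1A2 had 4 and 7 reads, the highest merged score of this bait was 20.96, for another fragment of the run at 317.2 kb. Next in ESCs came the intergenic fragments at 197.0 kb and 189.0 kb, with merged scores of 20.1 and 19.6.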

How the data were processed

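RNA-seq counts and PCHi-C interaction calls of H9 ESCs and day 7 NECs were analysed, and conventional Hi-C was not used here. For RNA-seq, the authors trimmed single-end reads, aligned them to GRCh37 (TopHat2 2.0.8b and Bowtie 1.0.0 per the labels) and deposited whole-number counts per gene, counted in Seqmonk without regard to strand on Ensembl release 70. For PCHi-C, the authors deduplicated read pairs with HiCUP and deposited CHiCAGO (0.1.4) scores of HindIII fragment pairs on GRCh37, for each replicate and merged, at a score of at least 12. ESC replicate 2 combined technical replicates.

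Counts were tested with edgeR 4.0.16 in R 4.3.3 (TMM normalization, filterByExpr with a minimum count of 10, quasi-likelihood test), which kept 17564 genes. Standard errors are the log2 fold change divided by the square root of the test's F. Where neither library of a cell type exceeded 3 counts the gene counted as at the floor there, and bounds use 3 counts per library. Exon lengths, exon overlaps and fragment annotation came from GENCODE release 44 on GRCh37, which is newer than the gene set of the counts. The scripts were tested on simulated data. Interactions were read with Python 3.11.15 and pandas 2.3.3, and the same pair of fragments counted as shared.

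The genes, the lists, the motifs and the rules for naming were chosen with earlier results of these data known. All 10 genes were named, along with the called genes of the 3 lists, except some list genes that are counted but not reported here by name, and for each bait the highest merged contact per cell type, contacts called in all 4 replicates and contacts found in both replicates of 1 cell type only. Other contacts and genes in the text were named after their values were seen. Alternatives were DESeq2 1.42.0 (the authors' tool), other scaling, no filter, no fold threshold, the replicate block, a score of at least 15, other definitions of baits and shared PIRs, and leaving out each replicate.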

Additional observations from a re-analysis of the deposited data

How the results depend on the processing

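Of the 10 genes, 4 were called under every scaling tried, with DESeq2 and with the replicate number as a block. Without a fold threshold 8 were called, and leaving out 1 library gave 4 to 5. ALDH1A2 was added without the filter on low counts and without NEC replicate 2, and RXRG without NEC replicate 1. Of the list genes 15 were called, 15 with the replicate block and 26 without a fold threshold, with 14 to 16 when 1 library was left out. Of all genes 3697 were called, 3698 with the replicate block and 10738 without a fold threshold, with 3294 to 4105 when 1 library was left out. The labels do not say whether same-numbered samples of the cell types were paired. Deviations of same-numbered samples had a correlation of 0.074, which cannot settle that. The block changed no call of the genes named here. No log2 fold change of a named gene changed sign. BCMO1 lost its call in 2 alternatives.

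At a score of at least 15 the baits had 31 merged PIRs in ESCs, 15 in NECs and 12 in both, with 2 in all 4 replicates. Without PIRs that are baits, 30 were shared and 4 were in all 4 replicates. With PIRs within 10 kb counted as shared, 36 were in all 4 replicates and 13 were found in both replicates of 1 cell type only. Leaving out 1 replicate gave 11 to 14 contacts in all remaining replicates and 30 to 43 in one cell type alone. The excess of ESC over NEC contacts in one cell type alone turned when a NEC replicate was left out. It was 10 in ESCs and 24 in NECs without NEC replicate 1, and 10 and 20 without NEC replicate 2. When an ESC replicate was left out the numbers were 30 and 4 without ESC replicate 1, and 39 and 4 without ESC replicate 2. Each setting favours the cell type with 1 replicate left, because a contact of that cell type alone then needs only 1 call. The lane shared by each cell type, and the unknown depth behind scores, limit every comparison.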
